A study of Rattus norvegicus with 24 samples.

Results

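A set of 10 genes of platelets and of megakaryocytes, their precursor cells, were followed in the spleen and liver of rats given cyclophosphamide. They are Pf4, Ppbp, Tubb1, Itga2b, Itgb3, Gp1bb, Gp5, Gp9, Treml1 and Clec1b, and each was found on the array by its gene symbol. Of these 10 genes, 9 had a probe set that names them alone, with 1 probe set each, among 14201 genes in all. Gp1bb was dropped because its only probe set also names its neighbour Septin5. The animals were 12 male Sprague-Dawley rats of wild-type genotype, aged 46 to 49 days. Cyclophosphamide (CP), an alkylating drug that damages the DNA of dividing cells, was given by mouth at 40 mg/kg/day for 5 days, and the other rats received vehicle. The 4 groups of 3 rats were CP with a wood stick in the cage, vehicle with wood, CP without wood and vehicle without wood. Liver and spleen of every rat were each put on an Affymetrix rat expression array, which gave 24 arrays.

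Megakaryocytes are large cells with many copies of the genome that form in bone marrow and, in adult rodents, also in the red pulp of the spleen. They grow long processes, the proplatelets, from which platelets are shed into the blood, and the spleen holds a pool of circulating platelets as well. Platelets have no nucleus but carry messenger RNA from the megakaryocyte, so a transcript of this kind in an organ can come from either. Other cells can add to it for some of these genes, such as Itgb3, and the source was not tested. Their surface receptors bind injured vessel walls and fibrinogen, and their granules release chemokines and clotting proteins.

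In the spleen, 8 of the 9 genes fell under CP and 0 rose (limma, Benjamini-Hochberg adjusted p under 0.05, averaged over both housings). Of all 13614 genes tested in spleen, 28.1% were called lower, 26.9% higher and 55% in either direction. The log2 change had a median of −1.84 over the 9 genes and of −0.02 over all genes tested. Tubb1, Treml1 and Ppbp fell by over 2 on the log2 scale, Gp9, Itga2b and Clec1b fell by less than that, Itgb3 fell least of those called, and Pf4 did not pass the test. Gp5 also fell, but to very dim values, and its place in this order depends on the offset used. With an offset of 64 added before taking logs, Ppbp was at −1.91 and Treml1 at −1.84, so their places also move. In a whole organ, fewer cells of a type and less RNA per cell cannot be told apart. Values below are array intensities, which differ between probe sets in sensitivity, so that levels are compared only between samples and not between genes.

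Pf4 and Ppbp encode platelet factor 4 and pro-platelet basic protein, the CXC chemokines that alpha granules store. The genes are next to each other on chromosome 14, with Cxcl3 and Cxcl6 as the flanking protein-coding genes in the RefSeq annotation. Pf4 had spleen intensities of 2521, 2999 and 3122 in CP rats with wood, against 3128, 3395 and 5228 in vehicle rats with wood. Without wood they were 2065, 2875 and 3058 in CP rats, against 4947, 2789 and 3377 in vehicle rats. The treatments overlapped without wood, through 1 vehicle rat, and the CP rats with wood all lay just below the vehicle rats with wood. The difference was −0.43 ± 0.18 on the log2 scale (SE; 95% interval −0.84 to −0.03; limma adjusted p = 0.0659), and 20.6% of the genes tested had a lower value. It passed without vehicle rat 1003, at −0.52 (adjusted p = 0.0360). Ppbp differed more: 183, 97.5 and 134 in CP rats with wood, against 422, 503 and 701 in vehicle rats with wood. Without wood its intensities were 104, 53.1 and 103 in CP rats, against 590.5, 636 and 684 in vehicle rats. All 6 CP spleens were below all 6 vehicle spleens, and Ppbp fell by 2.46 ± 0.22 on the log2 scale, a 5.51-fold decrease (adjusted p = 9.90e-06).

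Gp5 and Gp9 encode glycoproteins V and IX, subunits of the receptor by which platelets attach to von Willebrand factor at high shear. Gp5 was measured at 1.35, 9.89 and 21.5 in CP rats with wood, against 95.5, 97.9 and 126 in vehicle rats with wood. Without wood, 1 CP rat had 4.63 and the other 2 had no value, against 108, 96.2 and 84.5 in vehicle rats. Gp5 fell, with a log2 change of −4.19 ± 0.74 (adjusted p = 0.00182), whose size rests on very dim values. It was −2.47 when an offset of 16 was added before taking logs and blanks were set to 0, and −1.24 with an offset of 64. At that offset Tubb1 was at −2.39, Ppbp at −1.91, Treml1 at −1.84, Gp9 at −1.31 and Itga2b at −1.28, so that Gp5 has no settled rank among them. Gp9 had 67.8, 49.1 and 69.1 in CP rats with wood, against 207, 227 and 317 in vehicle rats with wood. CP rats without wood had 75.0 and 42.5 and 1 blank, against 215, 159.6 and 170.5 in vehicle rats without wood. Every CP spleen with a value lay below every vehicle spleen for both genes, and Gp9 fell by 1.84 ± 0.19 (adjusted p = 4.73e-05), a 3.58-fold decrease. The third subunit in this set, Gp1bb, has no value of its own, and no probe set names Gp1ba alone.

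Itga2b and Itgb3 encode the alpha and beta chains of the platelet fibrinogen receptor. The alpha chain is made almost solely by the megakaryocyte lineage, whereas the beta chain also pairs with another alpha chain in endothelial cells, macrophages and osteoclasts. Itga2b intensities were 275, 164 and 211 in CP rats with wood, against 455, 511 and 740.1 in vehicle rats with wood. In rats without wood they were 159.5, 170.0 and 215 under CP, against 646, 544 and 538 under vehicle. The treatments did not overlap, and Itga2b fell by 1.53 ± 0.16 on the log2 scale (adjusted p = 2.73e-05), a 2.89-fold decrease. Itgb3 had 1043, 902 and 744 in CP rats with wood, against 1194, 976 and 1684 in vehicle rats with wood. Without wood its values were 859, 968 and 863 in CP rats, against 1718, 1253 and 1412 in vehicle rats. Only the rats with wood overlapped, and Itgb3 fell by 0.60 ± 0.14 (adjusted p = 0.00565), a 1.51-fold decrease that 13.7% of the genes tested exceeded.

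Clec1b and Treml1 encode the podoplanin receptor of platelets and a receptor held in alpha granules until platelets are activated. Clec1b had 131, 75.4 and 77.7 in CP rats with wood, against 275, 251 and 316 in vehicle rats with wood. Without wood it had 73.1, 111 and 106 in CP rats, against 337, 196 and 229 in vehicle rats. Both housings were lower under CP with no overlap, and the change was −1.49 ± 0.19 (adjusted p = 0.000101), a 2.82-fold decrease. Treml1 was at 45.3, 49.9 and 47.1 in CP rats with wood, against 299, 306 and 405 in vehicle rats with wood. Without wood the intensities were 27.7, 55.8 and 66.7 under CP, against 437, 358 and 255 under vehicle. The 3 CP rats with wood were within a few intensity units of each other, the treatments did not overlap, and Treml1 fell by 2.84 ± 0.22 (adjusted p = 4.12e-06), a 7.16-fold decrease.

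Tubb1 encodes the beta-tubulin of the microtubule coil that shapes proplatelets and platelets, and it is used by few other cells. Its intensities were 173, 151 and 199 in CP rats with wood, against 762, 720.3 and 1194 in vehicle rats with wood. Without wood they were 62.9, 95.3 and 114 in CP rats, against 1359.8, 876 and 843 in vehicle rats. The CP spleens without wood were below the CP spleens with wood, and both were below all vehicle spleens. Tubb1 fell by 2.92 ± 0.20 on the log2 scale (adjusted p = 2.04e-06), a 7.55-fold decrease, and 0.588% of the genes tested fell further. Among the 7 genes with a value on all 12 spleen arrays, 5 had every CP spleen below every vehicle spleen, which held for 15.1% of the genes measured on all spleen arrays. Pf4 and Itgb3 were the other two.

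**Figure D1:**
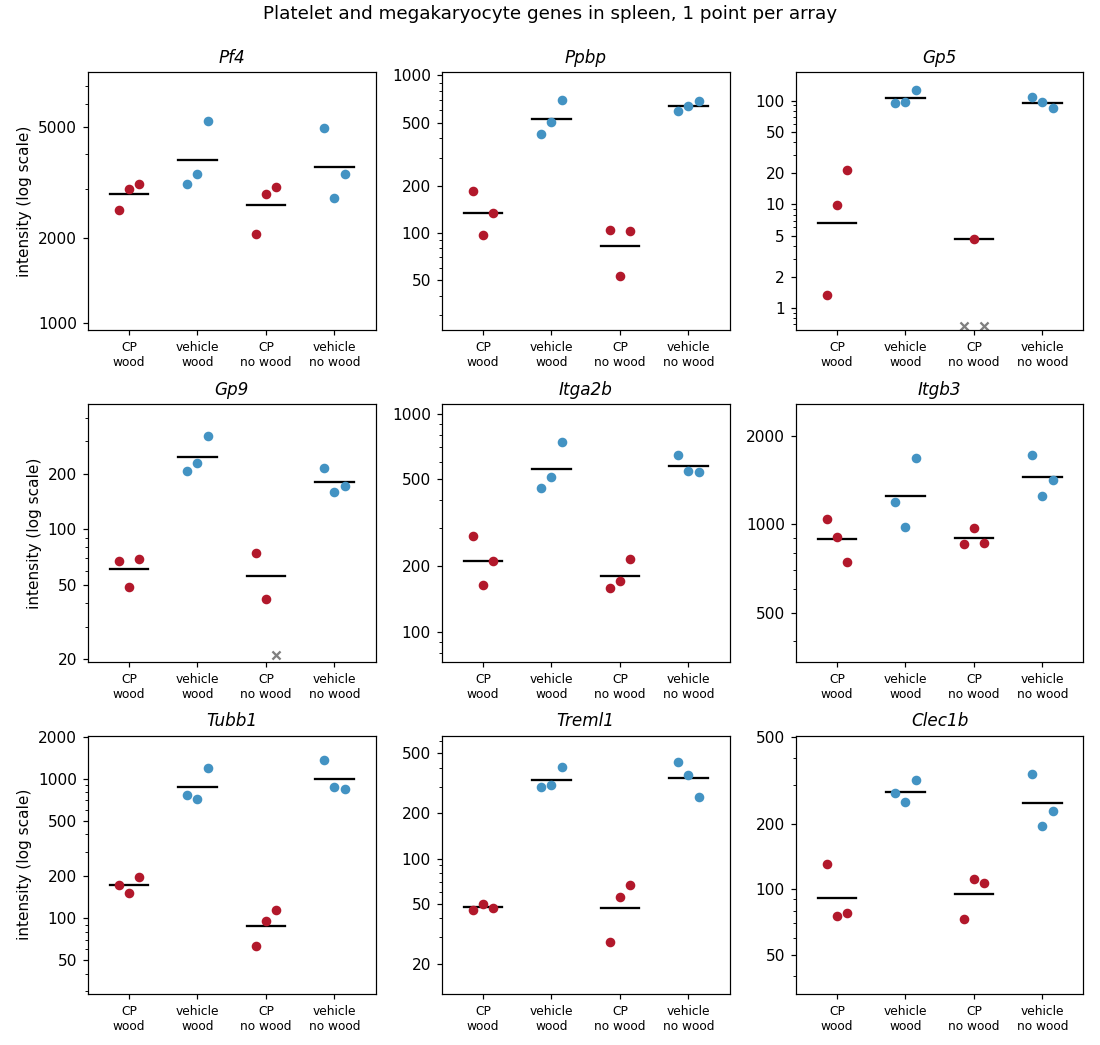
Spleen intensity of each of the 9 genes on a log axis, 1 point per rat and a bar at the geometric mean of each group, with the CP group left of the vehicle group in each housing. Ppbp, Tubb1, Itga2b, Treml1 and Clec1b have no CP point as high as a vehicle point, whereas Pf4 and Itgb3 overlap, and Gp5 and Gp9 have 2 and 1 CP arrays that were blank, drawn as grey crosses.

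Megakaryocyte genes are classically under the control of GATA factors, ETS factors such as Fli1, and Nfe2. Promoters are shown for 3 genes that fell, chosen because they hold a word that GATA factors are known to bind. RefSeq promoters (rat build GRCr8, the 250 bases before the annotated start) were at hand for 7 of the 9 genes. The words in capitals are AGATAA or TGATAA or AGATAG or TGATAG for GATA factors, AGGAAG or CGGAAG for ETS factors and TGAGTCA for Nfe2, read on both strands. The Itga2b promoter lies at chr10:87925834-87926083 on the minus strand, that of Gp5 at chr11:83948257-83948506 on the plus strand and that of Clec1b at chr4:164533859-164534108 on the plus strand.
Itga2b promoter: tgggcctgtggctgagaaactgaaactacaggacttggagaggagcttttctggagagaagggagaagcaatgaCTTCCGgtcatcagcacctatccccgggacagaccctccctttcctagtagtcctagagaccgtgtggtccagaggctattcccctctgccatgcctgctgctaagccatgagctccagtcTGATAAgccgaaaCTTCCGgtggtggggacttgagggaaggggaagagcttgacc
Gp5 promoter: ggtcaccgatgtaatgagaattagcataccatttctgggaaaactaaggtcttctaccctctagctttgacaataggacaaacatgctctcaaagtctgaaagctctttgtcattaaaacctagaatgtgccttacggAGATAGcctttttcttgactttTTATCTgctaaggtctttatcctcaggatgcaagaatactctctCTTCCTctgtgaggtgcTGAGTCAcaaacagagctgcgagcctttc
Clec1b promoter: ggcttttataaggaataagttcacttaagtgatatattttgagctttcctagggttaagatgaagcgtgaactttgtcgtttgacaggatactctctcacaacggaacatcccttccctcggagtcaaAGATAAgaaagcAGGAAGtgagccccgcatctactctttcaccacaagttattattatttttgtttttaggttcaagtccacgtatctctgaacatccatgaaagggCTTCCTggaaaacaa
In Itga2b, a GATA word began 55 bases before the start, with ETS words at 42 and 176 bases. Gp5 held GATA words at 112 and 90 bases, an ETS word at 46 and the Nfe2 word at 29. Clec1b had a GATA word at 122 bases, with ETS words at 110 and 15. A GATA word was present in 3 of the 7 promoters and in 26.8% of 27457 RefSeq promoters of the same length. An ETS word was present in 5 of the 7, against 39.7% of all promoters, and the Nfe2 word in 1 of the 7, against 4.03%. A match describes the letters and not a bound site.

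The drug effect on the spleen was also taken within each housing. With wood, 7 of the 9 genes were lower (18.5% of all genes tested were called lower), and without wood 8 of the 9 were lower (22.4% of all genes). Itgb3 was the gene that differed between the counts, at −0.50 ± 0.20 with wood (adjusted p = 0.0812) and −0.69 ± 0.20 without wood (adjusted p = 0.0192). The call on Itgb3 turned with the rats and with the settings. With wood it passed when vehicle rat 3003 was left out (adjusted p = 0.0305), when only genes at or above the median level were tested (0.0418) and with a trended and robust prior (0.0467). Without wood it was lost when CP rat 2001 (adjusted p = 0.0564) or vehicle rat 1001 (0.0671) was left out, and when a term for spleens rich in blank values was fitted (0.0956). Pf4 had −0.41 with wood and −0.45 without wood and passed in neither (adjusted p = 0.240 with wood and 0.172 without wood). The log2 change of Tubb1 was −2.32 ± 0.28 with wood and −3.51 ± 0.28 without wood. That of Ppbp was −1.99 ± 0.31 with wood and −2.94 ± 0.31 without wood. The housing difference, the drug effect with wood minus that without it, was 1.18 ± 0.39 for Tubb1 (95% interval 0.31 to 2.06; adjusted p = 0.243) and 0.95 ± 0.43 for Ppbp (95% interval −0.01 to 1.92; adjusted p = 0.389). None of the 9 differences passed in limma after adjustment, against 0.705% of all genes, and Tubb1 was the 1 gene with an unadjusted p under 0.05. The effect of wood itself, averaged over both treatments, was called for 0 of the 9 genes in spleen by limma. Of the 9, 0 had an unadjusted p under 0.05, beside 12.1% of all genes called. The 1647 genes behind that share ran from 108 to 2774 by setting, the fewest with the term for spleens rich in blanks, and from 654 to 1946 when 1 rat was left out. The wood effect on Tubb1 was 0.39 ± 0.20 (adjusted p = 0.199).

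**Figure D2:**
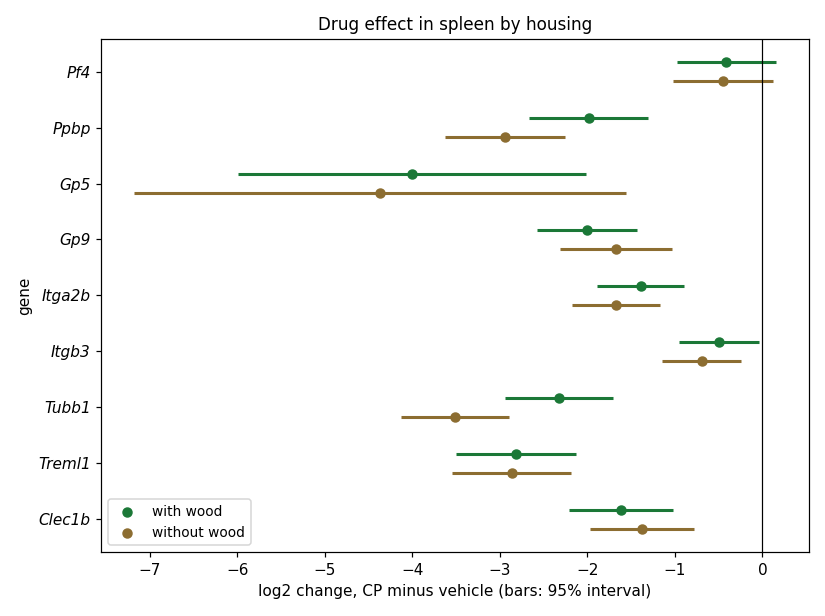
Spleen drug effect (log2 of CP over vehicle) of the 9 genes with wood and without wood, each point with its 95% interval. Tubb1, at −2.32 with wood and −3.51 without wood, and Ppbp, at −1.99 with wood and −2.94 without wood, have the points that lie furthest apart, and Pf4 lies nearest 0 in both housings.

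Single rats were often the highest or lowest of their group across the genes in the spleen. The same count over all genes was not made, so such an order is not shown to be particular to these genes. Vehicle rat 3005, with wood, was the highest of its group for 9 of 9 genes, and vehicle rat 1001, without wood, was the highest of its group for 8 of 9, with Ppbp as the exception. In CP rats without wood, rat 2001 was the lowest for 6 of the 7 genes with 3 values, Ppbp being the exception. CP rats with wood had no such order, since rats 4001 and 4005 were each highest for 4 genes. In the liver, rat 1001 was the highest of its group for 5 of 7 genes. Rat 3005 was the highest for 3 of 7 there, fewer than rat 3001 of the same group, with 4 of 7.

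In the liver, the CP effect was called for none of the 7 genes that could be tested (limma, 1 with an unadjusted p under 0.05). Few liver genes were called at all, 0.812% of 12683, so the absence of a call does not show that the 7 were unchanged. Gp9 was blank on all 12 liver arrays. Gp5 had no value on 8 of the 12, and its 4 liver values were between 1.11 and 6.21. No gene of the 7 had every CP liver below every vehicle liver, which held for 1.82% of the genes measured on all liver arrays. The median log2 change of the 7 genes was −0.16, against −0.02 over all genes.

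Pf4 was the gene with the unadjusted p under 0.05. Its liver intensities were 31.8, 43.7 and 39.9 in CP rats with wood, against 51.0, 47.2 and 124 in vehicle rats with wood. Without wood they were 40.5, 89.8 and 32.3 in CP rats, against 168, 70.2 and 70.1 in vehicle rats. The treatments overlapped without wood, and the difference of −0.87 ± 0.36 (95% interval −1.68 to −0.07) did not pass (limma adjusted p = 0.312). Ppbp, its neighbour, had 42.5, 58.7 and 43.4 in CP rats with wood, against 95.0, 70.3 and 57.9 in vehicle rats with wood, and 81.1, 25.5 and 88.6 in CP rats without wood, against 93.9, 43.8 and 49.5 in vehicle rats without wood. Its difference was −0.33 ± 0.33 (adjusted p = 0.696). Tubb1 had 56.2, 43.7 and 45.4 in CP livers with wood, against 59.4, 31.8 and 56.2 in vehicle livers with wood, and 58.6, 41.0 and 65.9 in CP livers without wood, against 88.9, 80.1 and 58.3 in vehicle livers without wood. The treatments overlapped in both housings for Ppbp and Tubb1, and Tubb1 differed by −0.22 ± 0.20.

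Treml1, Clec1b and the integrin chains overlapped between treatments in the liver over both housings. Treml1 intensities lay between 55.1 and 92.2 in CP livers and between 54.8 and 80.6 in vehicle livers, with a log2 difference of 0.06 ± 0.11. Clec1b lay between 63.8 and 155 in CP livers and between 78.8 and 145 in vehicle livers, a difference of −0.05 ± 0.22. Itga2b ran from 129 to 184 in CP livers and from 80.1 to 166 in vehicle livers, a difference of 0.31 ± 0.18 (adjusted p = 0.468) and the opposite sign to the spleen. With wood, its values of 184, 139 and 159 in CP livers all lay above the 111, 104 and 119 of vehicle livers, whereas without wood the treatments overlapped. Itgb3 ran from 214 to 399.7 in CP livers and from 246 to 347 in vehicle livers, a difference of −0.16 ± 0.16. The wood effect was called for 0 of the 7 genes in liver by limma, with 1 at an unadjusted p under 0.05, and for 0% of all genes. That 1 gene was Treml1, at −0.34 ± 0.11 (adjusted p = 0.645). The housing difference of the drug effect was likewise called for 0 of the 7 genes in liver, with 0 at an unadjusted p under 0.05, and for 0% of all genes.

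**Figure D3:**
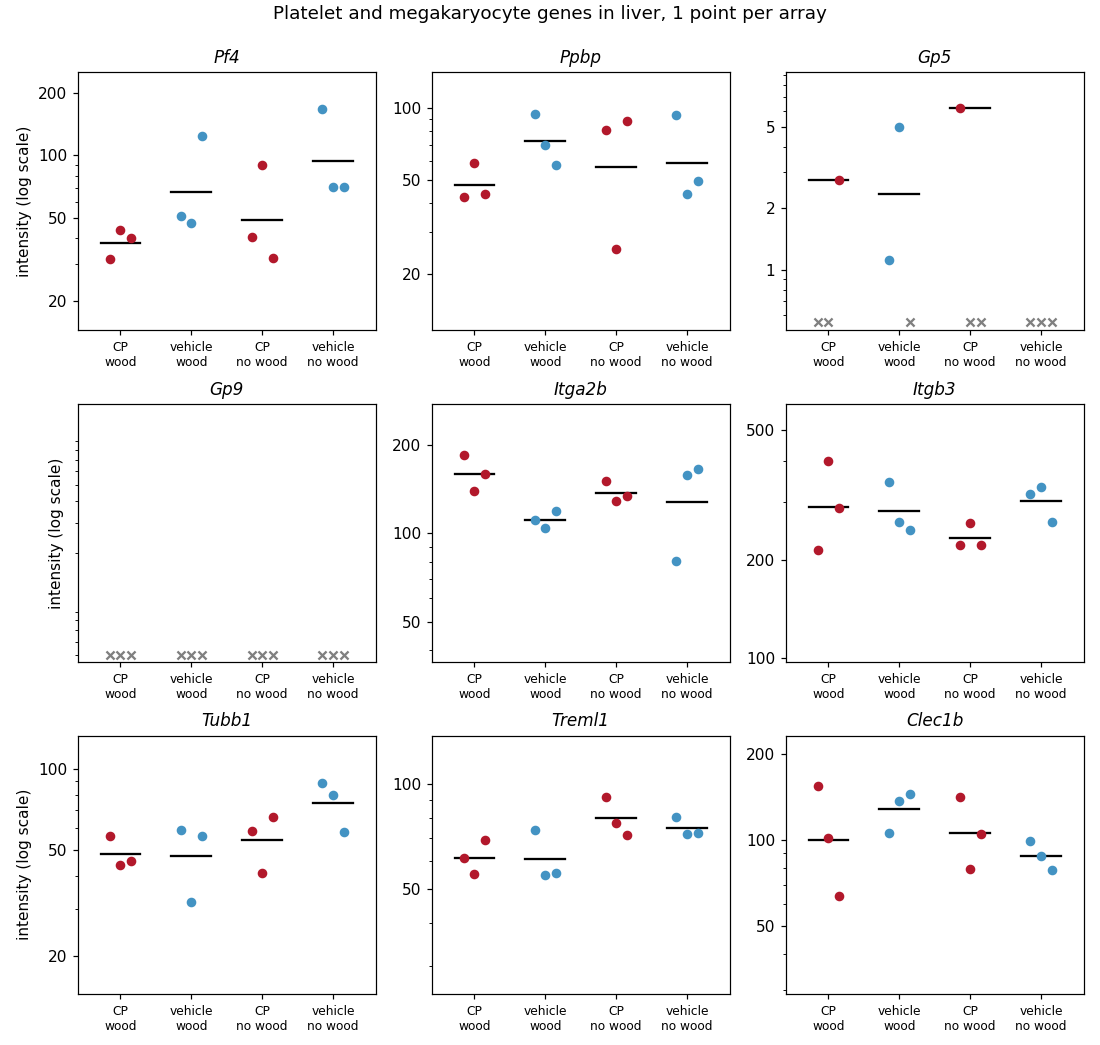
Liver intensity of the 9 genes on a log axis, 1 point per rat, a bar at the geometric mean of each group and grey crosses for blanks, with the CP group left of the vehicle group in each housing. Taken over both housings, the CP and vehicle points overlap in each of the 7 genes tested, Gp5 has 4 values between 1.11 and 6.21, and Gp9 has none.

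The drug effects in the 2 organs of the same 12 rats were then set against each other. The effect in spleen was lower than that in liver for 5 of the 7 genes tested in both (limma on all 24 arrays; 14.7% of 12474 genes were called lower). The differences, spleen minus liver, were −2.90 ± 0.25 for Treml1 (adjusted p = 1.94e-07), −2.70 ± 0.29 for Tubb1 (adjusted p = 1.81e-06) and −2.13 ± 0.41 for Ppbp (adjusted p = 0.000618). They were −1.85 ± 0.24 for Itga2b (adjusted p = 1.72e-05) and −1.45 ± 0.30 for Clec1b (adjusted p = 0.00117). In vehicle livers these 5 genes were lower than in vehicle spleens, and Treml1, Tubb1 and Ppbp were dim. Vehicle livers had 54.8 to 80.6 for Treml1, 31.8 to 88.9 for Tubb1 and 43.8 to 95.0 for Ppbp, on arrays whose median intensity was 90.6 to 92.4. Itga2b, at 80.1 to 166, and Clec1b, at 78.8 to 145, reached further above those medians. The vehicle livers of all 5 genes overlapped with or lay below the CP spleens on the same probe sets. With no detection calls, a fall of the spleen's size may not be measurable from such liver levels, and the difference between organs is limited by that. When only genes at or above the median level were kept, 3 of the 7 genes could be tested and 1, Itga2b, was called lower. Neither of the remaining 2 genes passed: Itgb3 differed by −0.43 ± 0.22 (adjusted p = 0.142, and 0.0386 without CP rat 4001), and Pf4 by 0.44 ± 0.41 (adjusted p = 0.445), its liver change being the more negative. In vehicle rats alone, all 7 genes were higher in spleen than in liver, as were 59.2% of all genes. Pf4 was 46.8-fold higher in spleen (5.55 ± 0.29 on the log2 scale), Tubb1 15.7-fold, Ppbp 8.87-fold, Treml1 5.00-fold, Itga2b 4.74-fold, Itgb3 4.62-fold and Clec1b 2.47-fold (1.31 ± 0.21, adjusted p = 1.71e-05). The median of all genes was 0.72 on the same scale. Pf4, with the largest spleen excess of the 7, was the gene whose spleen change did not pass.

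**Figure D4:**
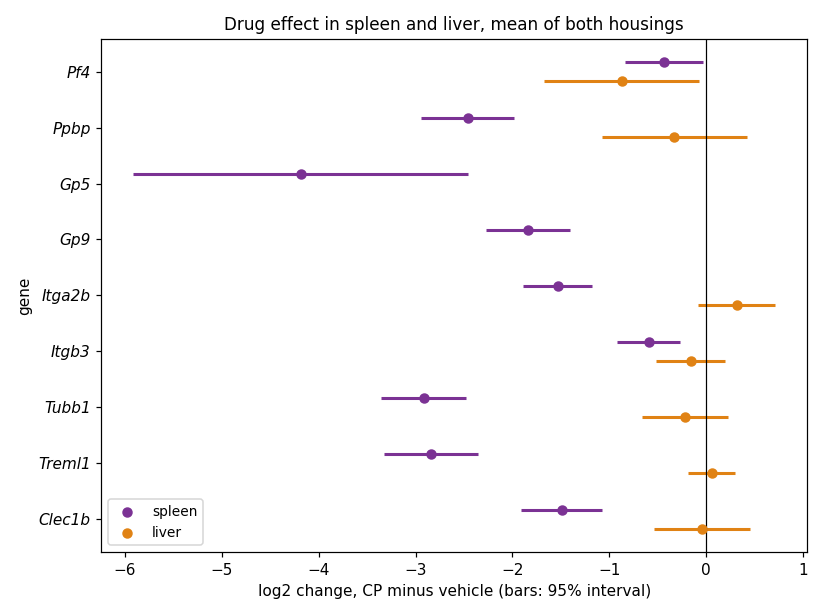
Drug effect (log2 of CP over vehicle, averaged over housings) of each gene in spleen and in liver, each point with its 95% interval. Treml1, Tubb1, Ppbp, Itga2b and Clec1b lie below 0 in spleen with liver intervals that include 0, Pf4 lies lower in liver than in spleen, and Gp5 and Gp9 have a spleen value alone.

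Across the 12 spleen arrays, the 7 genes with all values followed each other. The Pearson correlation of a gene with the mean of the other 6 (log2 values, n = 12 arrays) was 0.977 for Itga2b, 0.969 for Tubb1, 0.957 for Treml1, 0.951 for Clec1b, 0.910 for Ppbp, 0.867 for Itgb3 and 0.731 for Pf4. These arrays share the split into CP and vehicle. With each group's mean taken off, it was 0.872 for Tubb1, 0.848 for Itga2b, 0.737 for Clec1b, 0.718 for Pf4, 0.657 for Itgb3, 0.600 for Treml1 and 0.201 for Ppbp. In the liver, the same measure on log2 values ran from −0.574 for Itga2b to 0.686 for Tubb1. Of 12656 other spleen genes, the 5 whose values followed the mean of the 7 genes most closely were Alox12 (r = 0.982), Dedd2 (0.979), Csnk1g2 (0.975), Np4 (0.974) and F5 (0.971), n = 12 arrays each. Alox12 encodes the platelet 12-lipoxygenase and F5 encodes coagulation factor V, which platelets store, and both stand in the gene lists described next. Alox12 fell by 1.76 ± 0.17 and Np4, a defensin gene, fell by 5.00 in CP spleens. With group means taken off, the closest 5 were Sfxn3 (0.969), Fcgrt (0.954), Arhgap23 (0.943), Ubap1 (0.930) and Cavin3 (0.929), none of which is among the first 5. Under CP, Fcgrt, Arhgap23 and Cavin3 rose in spleen, by 0.92, 0.59 and 0.68, Ubap1 fell by 0.34, and Sfxn3 was not called. In the liver, the closest of 10676 genes was Inka2 at 0.869.

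Lists of other megakaryocyte and platelet genes were counted in the spleen in the same fit, where 28.1% of all genes tested were called lower and 26.9% higher. Of 12 transcription factors of the lineage, 8 fell, 3 rose and 1 did not pass, with a median of −0.96. Nfe2, which drives the last steps of platelet formation, fell by 4.52 ± 0.21 (adjusted p = 3.45e-07), with group geometric means of 26.2 in CP rats with wood, against 476 in vehicle rats with wood, and 25.8 in CP rats without wood, against 747 in vehicle rats without wood. Gata1, needed for megakaryocyte and red cell maturation, fell by 2.61 ± 0.30 (adjusted p = 5.42e-05). Tal1, its partner in a DNA-binding complex, fell by 2.48 ± 0.19 (adjusted p = 3.82e-06), and the ETS factor Fli1, named after its values were seen, fell by 0.79 ± 0.07 (adjusted p = 9.81e-06). Meis1, a homeobox factor of stem cells and megakaryocytes that other tissues also use, rose by 1.46 ± 0.13 (adjusted p = 1.15e-05). Red cell precursors use Nfe2, Gata1 and Tal1 as well. Thpo, the hormone that drives platelet production, lacks a probe set of its own. Of the 6 genes of its signalling axis that were tested, 4 fell and 1 rose, with a median of −0.30: Cblb, a ubiquitin ligase, fell by 0.73 ± 0.11 (adjusted p = 0.000299), and Jak2, a tyrosine kinase of cytokine signalling, rose by 0.65 ± 0.10 (adjusted p = 0.000317).

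The lists of granule, receptor and cytoskeletal genes held calls in both directions, and are read beside 28.1% lower and 26.9% higher over all genes tested. Of 17 alpha and dense granule genes tested, 10 fell and 4 rose, with a median of −0.46. Slc35d3, a transporter-like protein of dense granules, fell by 2.54 ± 0.33 (adjusted p = 0.000197), F5 fell by 2.11 ± 0.15 (adjusted p = 2.50e-06), the granule proteoglycan Srgn fell by 1.19 ± 0.06 (adjusted p = 6.91e-07) and Mmrn1, which binds factor V in granules, fell by 1.06 ± 0.15 (adjusted p = 0.000210). Of 19 platelet receptor and signalling genes, 4 fell and 7 rose, with a median of 0.00. Plcg2, a phospholipase downstream of Clec1b that B cells also need, fell by 2.38 ± 0.18 (adjusted p = 4.03e-06), whereas the thrombin receptor F2r rose by 0.99 ± 0.08, Cd36 by 0.97 ± 0.08 and Cd9 by 0.87 ± 0.07. Of 13 cytoskeletal genes, 3 fell and 5 rose, with a median of 0.01. Tuba4a, an alpha-tubulin abundant in platelets, fell by 2.19 ± 0.21 (adjusted p = 1.53e-05), and Actn1, Tpm1 and Mylk, which muscle and stromal cells also express, rose by 0.84 ± 0.09, 0.83 ± 0.09 and 0.80 ± 0.05.

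The eicosanoid enzymes were split in spleen, with 3 higher and 2 lower of 5, beside 26.9% higher and 28.1% lower over all genes tested. Alox12 (adjusted p = 1.95e-05) and Alox5ap, which serves leukotriene synthesis in white cells, changed by −1.76 ± 0.17 and −1.60 ± 0.11, whereas Pla2g4a rose by 1.27 ± 0.08 and the cyclooxygenase Ptgs1 by 1.15 ± 0.11. Of 9 chemokines and related receptors, 4 were higher and 3 lower in spleen, read beside the same shares over all genes. Cxcl12, a chemokine that draws megakaryocytes to their vessel niche, rose by 1.26 ± 0.11 and its receptor Cxcr4 fell by 1.33 ± 0.15. Pdpn, the ligand of Clec1b, rose by 0.67 ± 0.18 (adjusted p = 0.00898), and Cxcl1 by 1.37 ± 0.40 (adjusted p = 0.0157). In the liver, 2 genes of all these lists were called, beside 0.812% of the 12683 genes tested there. The receptor chain Fcer1g, 1 of 19 receptor and signalling genes tested, was lower (−0.72 ± 0.11 on the log2 scale, adjusted p = 0.0224). Cxcl1, 1 of 9 chemokines and related receptors, was higher at 1.77 ± 0.27 (adjusted p = 0.0224). The other lists had 0 called of 11 transcription factors, 7 thrombopoietin axis genes, 16 granule genes, 13 cytoskeletal genes and 5 eicosanoid enzymes.

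**Figure D5:**
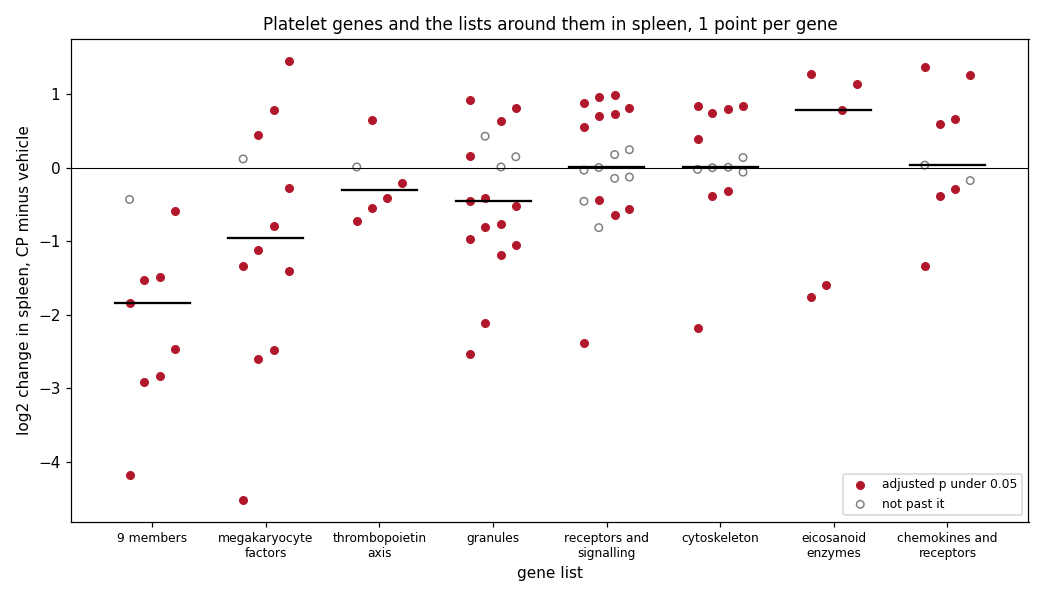
Spleen drug effect (log2 of CP over vehicle) of every tested gene of the 9 measured platelet genes and of the 7 lists, 1 column per list with a bar at its median, filled where adjusted p is under 0.05. The 9 genes all lie below 0, the transcription factors reach from −4.52 for Nfe2 to 1.46 for Meis1, and the receptor and cytoskeletal lists are spread to both sides of 0.

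Marker genes of several other cell types moved in the same spleens, where 28.1% of all genes tested were called lower and 26.9% higher. Of the erythroid markers, 6 of 6 tested fell (median log2 change −5.45), and the summed intensity of the list was 190 to 436 in CP spleens, against 9342 to 20943 in vehicle spleens. Epb42, a red cell membrane protein, was blank in all CP spleens. B cell markers fell in 2 of 2, neutrophil markers in 3 of 3 and stem and progenitor markers in 2 of 2. Mast cell and basophil markers fell in 1 of 4, and T cell markers rose in 1 of 3, with the rest of both lists not called. Exocrine pancreas markers rose in 1 of 4, and 0 of 3 hepatocyte markers were called. Endothelial markers rose in 6 of 6 (median 0.86), with sums of 8171 to 10292 in CP spleens, against 4578 to 6106 in vehicle spleens, and macrophage markers rose in 5 of 6 (median 0.78), with sums of 18969 to 21811 in CP spleens, against 10319 to 12941 in vehicle spleens. The part of these shifts in the results for the platelet genes was not tested. In the liver, 4 of 6 macrophage markers fell, with sums of 2051 to 3317 in CP livers, against 4281 to 5324 in vehicle livers, and 1 of 5 erythroid markers fell. Hepatocyte markers summed to 125 to 687 in spleens and to 25080 to 31756 in livers. The spleen of CP rat 2003, without wood, had exocrine pancreas markers summing to 8580. Without that rat Gp5 could not be tested, and 7 of the 8 other genes were called lower.

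Blank values and brightness differed between arrays. Between 1021 and 1920 probe sets were blank per spleen array and between 4924 and 6060 per liver array. The 3 vehicle spleens without wood and the spleen of CP rat 2005 had 1778 to 1920 blanks, and the other 8 spleens had 1021 to 1183. Among those 4 spleens, rat 2005 was below all 3 vehicle rats for Ppbp, Tubb1, Itga2b, Itgb3, Treml1 and Clec1b, within their range for Pf4, and blank for Gp5 and Gp9. All spleens with wood are among the 8 with fewer blanks. Leaving out the other 4 therefore could not alter the log2 drug effect with wood, only its spread and adjustment. The same number of genes, 7 of 9, was called. With the division as a term in the fit, 8 genes were called lower over both housings, with Pf4 at −0.32 (adjusted p = 0.262), and 7 without wood, where Itgb3 was lost. Over all genes, 3794 were then called without wood, against 6140 with no such term. These counts of called members include Gp5 and Gp9, which were blank in rat 2005. The term could not be estimated for either gene, so their calls carry no adjustment for the division.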

How the data were processed

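Total RNA from liver and spleen of 12 rats was labelled with biotin and put on 1 array per organ, per the labels' protocols. The deposited values were read as log10 intensities, a base inferred from their range, and multiplied by log2(10), 3.32, to give log2 values. The summary method and scaling behind these deposited values are not given in the sources used here. Intensities in the text are back-transformed. Blank cells, 10.5% of all, were left missing, and the file holds no detection calls.

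The platform annotation gives 1 gene for 20792 of the 30980 probe sets, several for 436 and none for 9752. Where a gene had several probe sets, that with the highest mean of log2(intensity + 16) was used, and genes with at least 1 value in each group were tested. Group means were fitted with limma 3.58.1 in R 4.3.3, over 12 arrays per organ or 24 arrays for organ differences, with Benjamini-Hochberg adjustment over all genes of a contrast at 0.05. The drug effect is the mean of those with and without wood. The fit was tested on simulated data. Precision is limited by the number of arrays, 3 per group.

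Organs of an animal share its number per the labels, so the animal was tried as a replicate block. The alternatives were normalisation, offsets, filters, priors, a term for blank-rich spleens and leaving out each rat. The members and lists were chosen with earlier results of these data known. Genes named are all members, up to 4 genes of each list by size of the drug effect among those that passed, the cell type markers, and the 5 genes whose pattern was most like the mean of the members.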

Additional observations from a re-analysis of the deposited data

Results flagged for a closer look

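For 5 genes the drug effect differed between spleen and liver by a test of the difference itself (limma over 24 arrays). On the log2 scale, spleen minus liver, the differences were −2.90 for Treml1, −2.70 for Tubb1, −2.13 for Ppbp, −1.85 for Itga2b and −1.45 for Clec1b. Vehicle livers were already dim for Treml1, Tubb1 and Ppbp, at or near their array medians of 90.6 to 92.4 or below them, so that a fall there may not be measurable. No sample of a group of 3 was tested as an outlier.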

How the results depend on the processing

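The number of members called changed by over 1.5 times under 1 setting, a filter to genes at or above the median level, which leaves fewer members to test. It called 5 of 5 for the spleen drug effect, 4 of 5 with wood, 4 of 5 without wood, 1 of 3 for the organ difference of the drug effect and 3 of 3 for the organs of vehicle rats. Leaving out 1 rat gave 7 to 9 members called for the spleen drug effect, 6 to 8 with wood, 7 to 8 without wood, 5 to 6 for the organ difference and 7 for the organs of vehicle rats, and 0 elsewhere. Pf4 passed in spleen with an offset of 64 (adjusted p = 0.0471), the filter above (0.0368), a trended and robust prior (0.0472) or without rat 1003 (−0.52; 0.0360), and ranged up to 0.262. Itgb3 was lost without wood when the division by blanks was fitted (0.0956), without rat 1001 (0.0671) or without rat 2001 (0.0564), and passed with wood under the filter (0.0418), the prior (0.0467) or without rat 3003 (0.0305). Its organ difference passed without rat 4001 (0.0386). Gp5 ranged from −4.61 to −1.24, and could not be fitted without rat 2003 or with at least 2 values per group.

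Signs turned in uncalled values alone. The housing difference of the drug effect in spleen became −0.030 for Pf4 after median centring and −0.18 with the division by blanks, 0.40 for Gp9 with an offset of 16 and 0.0089 with 64, and −0.026 for Treml1 under quantile normalisation, −0.021 after centring and −0.46 with the division by blanks. Leaving out 1 rat gave ranges of −0.19 to 0.27 for Pf4, −0.48 to 1.52 for Gp5, −0.74 to 0.079 for Gp9 and −0.33 to 0.31 for Treml1, and of −0.20 to 0.12 for the liver drug effect on Clec1b. The cause was not tested. With the animal as a replicate block (consensus correlation 0.0724), 5 and 7 members were called for the organ difference and the organs of vehicle rats, and it changed no call. Over all genes, counts of calls moved most for the spleen wood effect (1647, with 108 to 2774 by setting), the spleen housing difference (96, with 9 to 1013), the liver drug effect (103, with 35 to 212), that without wood (19, with 2 to 68) and that with wood (6, with 1 to 17). The spleen drug effect ran from 4980 to 8280 around 7485, that without wood from 3794 to 7135 around 6140, and the organs of vehicle rats from 6296 to 11444 around 9911. Averaging the probe sets of each gene called the same numbers of members (8 for the spleen drug effect), each of which has a single probe set, so that only the prior and the adjustment changed. The values of other probe sets of a member could not be given. Dim values limit Gp5 and Gp9, which lack a detection call.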

Other observations

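The probe set that names both Gp1bb and its neighbour Septin5 cannot be given to either gene, so its values stand here alone. In spleen its intensities were 76.7, 44.6 and 79.1 in CP rats with wood, against 408, 436 and 737 in vehicle rats with wood. Without wood they were 23.0, 25.7 and 13.3 in CP rats, against 645, 428 and 464 in vehicle rats. All 6 CP spleens lay below all 6 vehicle spleens. In liver it was blank on all 12 arrays, as was Gp9, the partner of Gp1bb in the platelet von Willebrand factor receptor.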
